A study of Mustela putorius furo with 8 samples.

Results

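The genes *GKN1*, *UPK3A*, *APOH*, *SELENBP1*, *BCAS1* and *TSPAN8* were followed through cultured ferret pancreatic ductal epithelium. They are 6 of the 27912 genes in the count tables. They were chosen by their levels in 1 cluster of CFTR knockout (CF) cells, ductal cluster 12, where 5 of them stood among the 10 leading genes and *TSPAN8* did not, and the question was which wild-type (WT) clusters hold them too. Their levels in CF cells are therefore a description and carry no test. Their levels in WT cells are given as a description as well.

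The genes are known from the surfaces of other organs. *GKN1* encodes gastrokine 1, a protein that surface mucous cells of the stomach secrete. *UPK3A* encodes uroplakin 3A, a membrane protein of the plaques that armour the umbrella cells of the bladder, where it pairs with the uroplakin UPK1B. *APOH* encodes beta-2-glycoprotein I, a phospholipid-binding plasma protein made mainly by the liver. *SELENBP1* encodes selenium-binding protein 1, an enzyme that oxidizes methanethiol, and *TSPAN8* encodes a tetraspanin of the cell surface and of exosomes that is common in gut epithelium. *BCAS1*, first found as a gene amplified in breast carcinoma, is also known from young oligodendrocytes. Stomach surface cells and umbrella cells both stand at the lumen, above basal or progenitor cells that divide.

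The cultures were polarized pancreatic ductal epithelia (PDE). Ductal cells of newborn WT ferrets and of newborn ferrets labelled CFTR KO/KO, the only allele named, were expanded for 10 passages and then grown on permeable inserts at an air-liquid interface. Droplet libraries of single cells were made at day 2, 5, 7 and 9, with 1 library for each genotype and day, 8 in all, and no other agent separated the groups. Cells of several animals were pooled for each library, and the authors report a difference in *PDX1* between the pooled WT and CF donors. No cell is tied to an animal, so no value below has a replicate error and no p-value is given. Intervals are exact 95% intervals, cover counting error only and say nothing of the spread between animals or cultures.

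The libraries held 1607 to 6224 retained cells each, 32945 in all, with median depths of 14949 to 23427 UMIs (unique molecular identifiers, each standing for a captured RNA molecule). *CFTR*, the targeted gene, stood at 6.57, 16.9, 15.9 and 29.5 CPM, that is, UMIs of the gene scaled to 1e+06 UMIs of the library, in WT at day 2, 5, 7 and 9 and at 2.50, 8.69, 11.1 and 11.4 CPM in CF. It was lower in CF on each day but was not at 0, although the authors describe KO/KO ferrets as making no *CFTR* mRNA. Where the counted tags lie in the gene was not examined, so these values do not check the labels. All 7 ductal markers were present in each library, as were the 7 acinar, 5 centroacinar and 11 centroacinar progenitor markers measured. Of a separate list of acinar enzyme genes only *CELA1* was measured. It stood at 0.0785 CPM or less in each library and at 0 in CF at day 9. The endocrine genes *INS* and *GCG* were at 0 in all 8 libraries. Markers of mesenchymal cells summed to 785 and 881 CPM in CF at day 7 and 9 and to between 14.9 and 323 CPM in the other 6 libraries. CF cluster 11, whose leading genes hold *ACTA2*, *COL1A1*, *COL1A2* and *TAGLN* although it is deposited as centroacinar, had 128 and 266 of its 401 cells on those days, and leaving it out kept the direction of 23 of the 24 differences below.

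All 6 genes are annotated as protein-coding in the RefSeq table of the ferret assembly ASM1176430v1.1, which places them on sequences with no chromosome name. *GKN1* (gene ID 101688323) spans 6964 bases and has 1 RefSeq transcript. *UPK3A* (101676575) spans 7416 bases, *APOH* (101679051) 12610, *SELENBP1* (101693750) 8027 and *TSPAN8* (101683059) 31087, each also with 1 transcript. *BCAS1* (101678177) spans 93355 bases and has 13 transcripts, which UMI counts per gene do not separate.

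CF cluster 12 was the starting point. It held 395 cells, 3.48% of the retained CF cells, and 329 of them came from day 5, 50 from day 7, 12 from day 9 and 4 from day 2. In these cells *GKN1* stood at 187 CPM (95% interval 180 to 195) against 64.2 CPM in the other CF cells. *UPK3A* stood at 118 CPM against 32.2, *APOH* at 16.7 against 4.13, and *SELENBP1* at 47.0 against 19.3. *BCAS1* stood at 134 CPM against 59.8 and *TSPAN8* at 130.5 against 90.4. By fold over the other CF cells, with 1 CPM added to both, *UPK3A*, *APOH*, *GKN1*, *SELENBP1* and *BCAS1* ranked 1, 2, 4, 8 and 9 among the genes that reached 10 CPM there, whereas *TSPAN8* ranked 153. The genes between them that are not followed here were *CRABP2*, a carrier of retinoic acid, at rank 3, and 3 genes known only by a locus number. With raised meaning at least 4 times the CPM of the other cells of the genotype, with at least 10 UMIs, only *APOH* was raised in cluster 12, at 4.04-fold. Of 12974 genes with at least 100 UMIs over the CF cells, 0.0231% were raised in it, so folds this large were rare in the cluster. These ranks and folds are over CF cells of all days. At day 5 *UPK3A* and *APOH* stood at 111 and 15.1 CPM in cluster 12 and at 50.3 and 6.41 CPM in the whole CF library. At day 2 that library held *UPK3A* at 8.19 CPM in CF. The part of day in the folds was not tested.

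Across the libraries, *GKN1* was higher in CF than in WT on each of the 4 days. It stood at 20.1, 28.9, 27.6 and 15.7 CPM in WT at day 2, 5, 7 and 9 and at 77.0, 88.6, 52.6 and 41.5 CPM in CF. The lowest CF library stood above the highest WT library. CF over WT came to 3.83 (3.65 to 4.01) at day 2, 3.07 at day 5, 1.90 at day 7 and 2.64 at day 9.

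*UPK3A* had the largest ratio of the 6 members between the genotypes, from day 5 on. WT stood at 6.66, 5.29, 5.77 and 7.96 CPM and CF at 8.19, 50.3, 59.7 and 57.7 CPM. At day 2 CF stood at 1.23 times WT (1.11 to 1.36), and at day 5, 7 and 9 at 9.52 (8.69 to 10.4), 10.3 (9.36 to 11.4) and 7.24 times (6.66 to 7.89). The CF level of day 2 lay within the counting interval of the WT level of day 9.

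*APOH* was sparse, with 134 to 458 UMIs in a library. WT stood at 1.34, 3.78, 2.89 and 2.03 CPM and CF at 4.48, 6.41, 5.01 and 2.68 CPM, with day 5 the highest in both. The CF to WT ratio was 3.33 (2.77 to 4.02) at day 2, 1.70 at day 5, 1.73 at day 7 and 1.32 (1.05 to 1.67) at day 9.

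*BCAS1* stood lower at day 2 than on the later days in both genotypes. It stood at 8.47, 34.6, 37.7 and 61.5 CPM in WT and at 32.98, 84.8, 79.3 and 84.0 CPM in CF. CF over WT was 3.90 at day 2, 2.45 at day 5, 2.10 at day 7 and 1.37 (1.31 to 1.42) at day 9.

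*SELENBP1* and *TSPAN8* had no lasting order of the genotypes. *SELENBP1* stood at 17.5, 26.8, 49.7 and 51.5 CPM in WT and at 11.4, 30.8, 27.5 and 20.2 CPM in CF, so that WT was the higher genotype on 3 of the 4 days, and the ratio at day 9 was 0.393 (0.366 to 0.421). *TSPAN8* stood at 64.7, 65.7, 59.3 and 80.9 CPM in WT and at 109.7, 90.5, 71.8 and 73.5 CPM in CF. Its ratio of CF to WT was 1.70 at day 2 and 0.909 (0.873 to 0.946) at day 9. Without CF cluster 11 the log2 difference of *TSPAN8* at day 9 was 0.04 in place of −0.14.

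**Figure D1:**
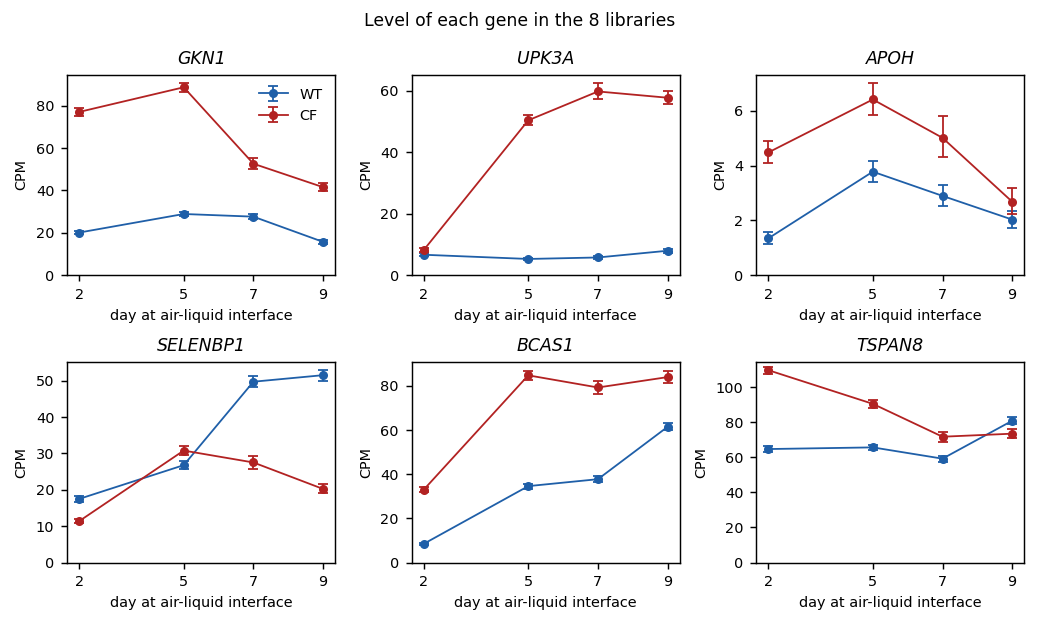
Level of each of the 6 genes (CPM, y axis from 0) against the day at the air-liquid interface, WT in blue and CF in red, 1 library per point, with exact 95% Poisson intervals for counting error. *GKN1* was 41.5 CPM or more in every CF library and 28.9 CPM or less in every WT library, and the *UPK3A* lines part between day 2 and day 5.

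Counted at a ratio of at least 2, 3 of the 6 members were higher in CF at day 2 (*GKN1*, *APOH* and *BCAS1*), where 8.54% of 13974 genes tested were at least 2-fold higher and 9.1% at least 2-fold lower. With 5 CPM added to both levels *APOH* dropped out, at 0.58 on the log2 scale. At day 5 it was again 3 members (*GKN1*, *UPK3A* and *BCAS1*), against 5.55% of genes higher and 9.33% lower. At day 7 it was 2 members (*UPK3A* and *BCAS1*), against 9.16% higher and 6.46% lower, and with TMM or DESeq2 scaling *BCAS1* dropped out and *SELENBP1* was past 2-fold lower. At day 9 it was 2 higher (*GKN1* and *UPK3A*) and 1 lower (*SELENBP1*), against 8.28% and 7.07% of genes. The median log2 difference over the 6 members was 0.99, 0.95, 0.77 and 0.36 at day 2, 5, 7 and 9, and over all genes tested it was −0.01, −0.05, 0.12 and 0.07. Since the members were chosen as high in a CF cluster, nothing is read from these counts against those of all genes.

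The WT cells were next asked for clusters that hold the members. Of the 39 WT clusters of at least 50 cells, 0 had 4 or more members raised at least 4-fold over the other WT cells, and the most that any cluster had was 2. Without the WT library of day 9 it was 1 cluster, cluster 30, and against the median of the other WT clusters it was 3, clusters 22, 30 and 33. Clusters 33, 22, 30 and 17 reached 2. WT cluster 33 (ductal, 166 cells) and WT cluster 22 (ductal, 453 cells) had *GKN1* and *APOH* raised, WT cluster 30 (named centroacinar, 260 cells) had *UPK3A* and *APOH*, and WT cluster 17 (ductal, 603 cells) had *UPK3A* and *BCAS1*. The share of 13515 genes raised 4-fold was 1.01% in WT cluster 33, 0.451% in cluster 22, 1.04% in cluster 30 and 2.15% in cluster 17. These folds are over WT cells of all days, and no count was made within days. At day 2 WT cluster 33 held *GKN1*, *APOH* and *BCAS1* at 105, 13.7 and 87.9 CPM. The whole WT library of that day held 20.1, 1.34 and 8.47 CPM. For *UPK3A*, *SELENBP1* and *TSPAN8* it was 18.9, 18.2 and 94.2 CPM, against 6.66, 17.5 and 64.7 CPM.

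With a fold of 2 in place of 4, those same 4 clusters, and no other, had 4 members past the fold, and in each of them these were *GKN1*, *UPK3A*, *APOH* and *BCAS1*. At that fold 4.11% of genes were past it in WT cluster 33, 2.85% in cluster 22, 3.58% in cluster 30 and 7.6% in cluster 17. *SELENBP1* and *TSPAN8* were past 2-fold in none of the 4. No WT cluster had 5 or 6 members past 2-fold. WT cluster 24 (named centroacinar progenitor, 382 cells) had *GKN1* (50.7 CPM), *APOH* (5.03 CPM) and *SELENBP1* (81.8 CPM) past it, with 1.18% of genes, and held *UPK3A* at 1.73 CPM. WT cluster 27 (named proliferating ductal, 298 cells) had *GKN1* (56.9 CPM) and *APOH* (4.88 CPM) past it, with 6.64% of genes.

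*GKN1* was highest in WT in cluster 33, at 99.9 CPM (89.3 to 111), followed by cluster 22 at 89.9 (84.2 to 95.9) and cluster 30 at 76.3 CPM (69.7 to 83.4). The intervals of the first pair overlapped, and with equal weight for each library cluster 22 was the higher, at 98.1 against 90.5 CPM. The level in WT cluster 33 was 53.3% of that in CF cluster 12.

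*UPK3A* was highest in WT cluster 17, at 40.7 CPM (36.8 to 44.9), and in cluster 30, at 38.4 CPM (33.7 to 43.5), with overlapping intervals, and at day 9 cluster 30 was the higher. Clusters 33 and 22 held 23.3 and 15.2 CPM. The highest WT cluster thus held 34.4% of the level in CF cluster 12, and WT cluster 17, 2.79% of WT cells, held 16.5% of the WT UMIs of *UPK3A*.

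*APOH* was highest in WT in cluster 22 when the days were pooled, at 15.7 CPM (13.4 to 18.4), against 16.7 CPM (14.5 to 19.1) in CF cluster 12. WT clusters 30 and 33 held 12.4 and 12.3 CPM. With equal weight for each library the order turned, with 13.9 CPM in WT cluster 30, 11.3 in cluster 22, 8.87 in cluster 33 and 21.3 CPM in CF cluster 12. Cluster 30 stood at 17.7, 13.8 and 10.1 CPM at day 5, 7 and 9, against 20.0, 12.4 and 1.81 CPM in cluster 22, the last from 1 UMI, with overlapping intervals on each of these days. *BCAS1* was highest in WT cluster 17, at 177 CPM (169 to 186), above the level in CF cluster 12, followed by cluster 30 at 108 and cluster 33 at 99.9 CPM.

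*SELENBP1* and *TSPAN8* had their WT maxima elsewhere. *SELENBP1* was highest in WT cluster 16 (named centroacinar), at 126 CPM (117 to 135), 267% of the level in CF cluster 12, followed by WT cluster 32 at 118 CPM (107 to 131) and WT cluster 18 at 115 CPM (108 to 122), with overlapping intervals. *TSPAN8* was highest in WT cluster 7 (named centroacinar), at 155 CPM (148 to 162), with WT cluster 18 at 147 and WT cluster 21 at 142 CPM, and with equal weight for each library clusters 18 and 7 stood at 148 and 146 CPM. In WT clusters 1, 16, 18 and 21 the 3 members past 2-fold were *SELENBP1*, *BCAS1* and *TSPAN8*, and 5.36%, 13.2%, 4.71% and 4.85% of all genes were past it in these clusters. *UPK3A* was at 0.46 to 0.62 CPM in those 4 clusters, from 3 to 12 UMIs in each.

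**Figure D2:**
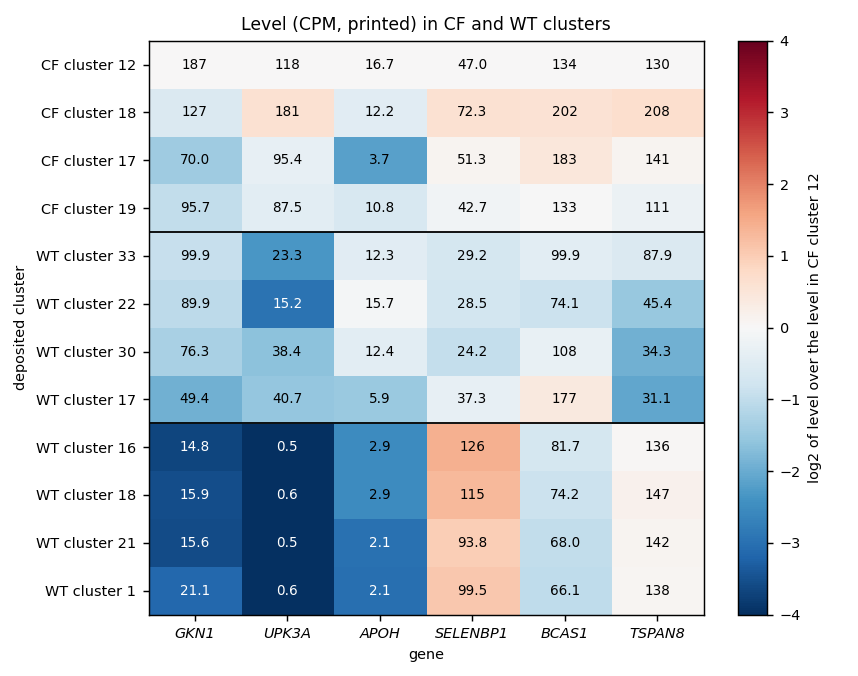
Level (CPM, printed in each cell) of the 6 genes in 4 CF clusters, the 4 WT clusters with the most members raised, and 4 WT clusters high in SELENBP1 and TSPAN8, coloured by the log2 of the level over that in CF cluster 12. WT clusters 33, 22, 30 and 17 hold GKN1, UPK3A, APOH and BCAS1 with less TSPAN8, whereas WT clusters 16, 18, 21 and 1 hold SELENBP1, BCAS1 and TSPAN8 and UPK3A at 0.62 CPM or less.

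The WT clusters highest in these 2 sets of members also differed in *SOX2*, a transcription factor of the foregut and of its basal cells. In WT the clusters fell into 12 with *SOX2* at 0.81 to 4.87 CPM (SOX2-low, 5479 cells) and 29 with *SOX2* at 50.6 to 205 CPM (SOX2-high, 16121 cells), and in CF no cluster exceeded 1.08 CPM. WT clusters 17, 22, 30 and 33 were all SOX2-low, with 1.91 to 3.30 CPM, and WT clusters 1, 7, 16, 18 and 21 were all SOX2-high, with 101 to 162 CPM. WT cluster 24, with *GKN1*, *APOH* and *SELENBP1* past 2-fold, was SOX2-high as well, at 111 CPM. The cut was placed in the empty range between the 2 sets after the values had been seen.

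Each day gave the same contrast for *GKN1* and *APOH* between the 2 sets of WT cells. In SOX2-low WT cells *GKN1* stood at 68.1, 46.3, 39.7 and 24.6 CPM at day 2, 5, 7 and 9, and in SOX2-high WT cells at 13.1, 14.1, 21.3 and 11.9 CPM. *APOH* stood at 5.24, 5.97, 4.72 and 2.79 CPM in SOX2-low cells and at 0.77, 1.92, 1.93 and 1.70 CPM in SOX2-high cells. Both genes were higher in SOX2-low cells on 4 of 4 days, by 1.87-fold to 5.21-fold for *GKN1*.

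*UPK3A* parted the sets from day 5 on. SOX2-low WT cells held 7.97, 10.6, 13.7 and 23.3 CPM and SOX2-high WT cells 6.47, 0.78, 1.60 and 1.25 CPM. The ratio of SOX2-low to SOX2-high was 1.23 (1.003 to 1.502) at day 2, 13.5 (9.88 to 18.9) at day 5, 8.56 at day 7 and 18.5 (14.6 to 23.9) at day 9. At day 2 SOX2-high cells gave 84.7% of the WT UMIs of *UPK3A* and were 85.7% of the WT cells. The cells deposited as acinar and proliferating acinar held 13.8 and 12.7 CPM. Both SOX2-high clusters with the most *UPK3A*, WT clusters 25 and 26, carry those names.

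*SELENBP1* went the other way on each day, with 8.72, 14.8, 20.2 and 22.9 CPM in SOX2-low and 18.8, 36.9, 65.3 and 64.1 CPM in SOX2-high WT cells. *TSPAN8* was 74.3, 52.9, 31.8 and 25.2 CPM in SOX2-low cells and 63.3, 76.5, 73.7 and 105 CPM in SOX2-high cells, so its order turned between day 2 and day 5. *BCAS1* stood at 31.8, 35.3, 48.5 and 74.6 CPM in SOX2-low and at 5.04, 34.0, 32.1 and 55.7 CPM in SOX2-high cells, and at day 5 the ratio of 1.04 (0.97 to 1.11) did not part them beyond counting error.

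Set beside SOX2-low WT cells alone, the CF cells stood higher in *UPK3A* from day 5 on and in *GKN1* and *TSPAN8* on each day. For *UPK3A* the ratio of CF to SOX2-low WT was 1.03 (0.85 to 1.26) at day 2, 4.75 (4.32 to 5.23) at day 5, 4.36 at day 7 and 2.48 (2.27 to 2.71) at day 9. For *GKN1* it was 1.13 (1.06 to 1.21), 1.91, 1.33 and 1.69 (1.55 to 1.85), and for *TSPAN8* 1.48, 1.71, 2.26 and 2.92 (2.68 to 3.17), where the day 9 ratio to all WT cells was 0.909. For *SELENBP1* it was 1.31 (1.09 to 1.58) at day 2, 2.08 (1.91 to 2.27) at day 5, 1.37 (1.23 to 1.52) at day 7 and 0.884 (0.798 to 0.980) at day 9, so that CF stood above SOX2-low WT cells at day 2 and 7 and below all WT cells on those days. For *APOH* all 4 intervals held 1, with ratios of 0.85, 1.07, 1.06 and 0.96. *BCAS1* was at 1.04 (0.94 to 1.15) at day 2, 2.40 at day 5, 1.63 at day 7 and 1.12 at day 9.

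**Figure D3:**
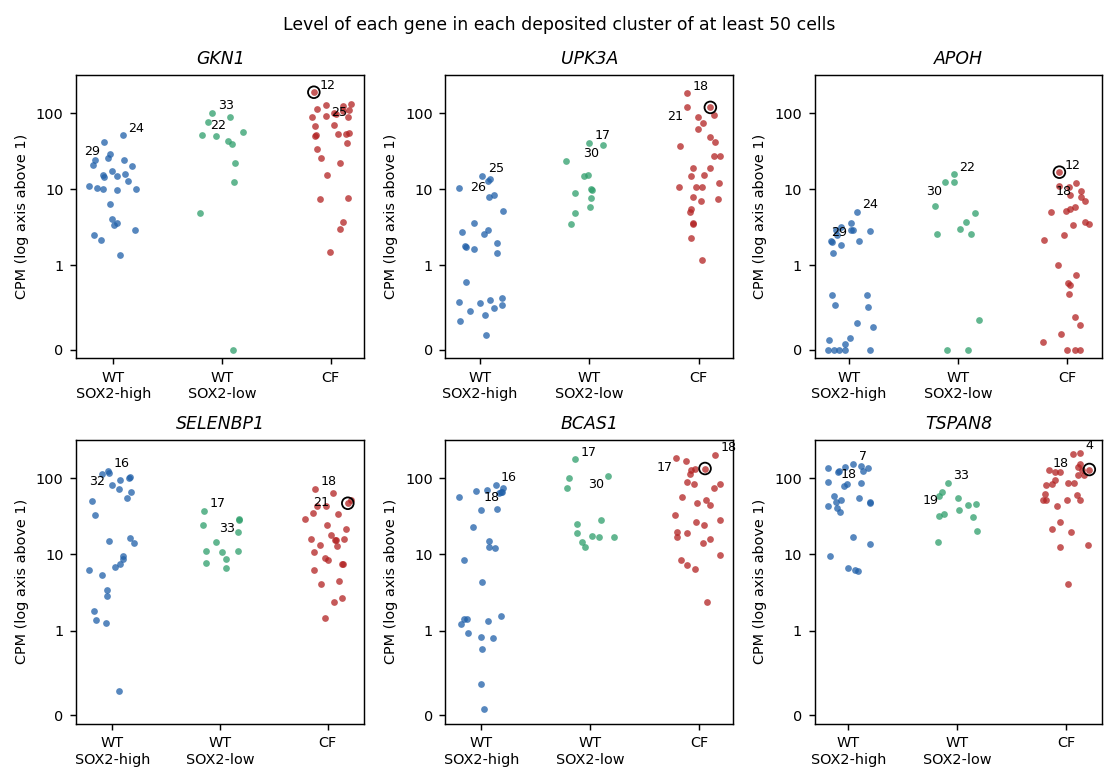
Level of each gene (CPM, axis linear up to 1 and logarithmic above) in each deposited cluster of at least 50 cells: 27 SOX2-high WT clusters in blue, 12 SOX2-low WT clusters in green and 29 CF clusters in red, with the numbers of the 2 highest of each set and CF cluster 12 circled. UPK3A reaches 14.9 CPM in SOX2-high WT, 40.7 CPM in SOX2-low WT and 181 CPM in CF clusters, whereas SELENBP1 is highest in SOX2-high WT cluster 16, at 126 CPM.

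In the 4 WT clusters the levels were seen in more than 1 library. WT cluster 22, with at least 20 cells on each of the 4 days, held *GKN1* at 142, 93.9, 76.6 and 79.6 CPM and *APOH* at 11.1, 20.0, 12.4 and 1.81 CPM at day 2, 5, 7 and 9. WT cluster 17 held *UPK3A* at 48.4, 35.4 and 42.3 CPM and *BCAS1* at 185, 154 and 187 CPM at day 5, 7 and 9, from 30, 161 and 406 cells. WT cluster 30 held *UPK3A* at 34.3, 28.5 and 47.0 CPM on the same days, from 30, 81 and 146 cells. WT cluster 33 came mostly from day 2, with 130 of 166 cells, and interferon-stimulated genes such as *ISG15*, *IFIT3* and *MX1* led it. Its *GKN1* level was 105 CPM at day 2 and 76.4 CPM in the 33 cells of day 9, and its *UPK3A* level was 18.9 and 38.2 CPM. Its *APOH* level was 13.7 CPM at day 2, from 37 UMIs, and 4.02 CPM (0.487 to 14.5) at day 9, from 2 UMIs. The *APOH* call in that cluster thus rests mostly on the library of day 2.

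Among CF clusters with the days pooled, cluster 12 was the highest for *GKN1* and for *APOH*. For *GKN1* its interval lay apart from the next cluster, cluster 25, at 132 CPM (124 to 140), and for *APOH* it overlapped that of cluster 18, at 12.2 CPM (10.1 to 14.6). Within days the order turned in part. At day 7 *GKN1* stood at 184 CPM (160.0 to 211) in the 26 cells of cluster 25 and at 149 CPM (132 to 168) in cluster 12, and at day 5 *APOH* stood at 16.5 CPM (12.03 to 22.1) in cluster 18 and at 15.1 CPM (12.8 to 17.7) in cluster 12. *UPK3A* was higher in CF cluster 18 (named centroacinar progenitor, 338 cells), at 181 CPM (173 to 190). *SELENBP1*, *BCAS1* and *TSPAN8* were also higher there, at 72.3, 202 and 208 CPM, and the 6 levels summed to 803 CPM in cluster 18 and to 635 CPM in cluster 12. CF cluster 18 had 1 member raised 4-fold, *UPK3A* at 5.91-fold, where 0.671% of genes were raised, and it held 18.8% of the CF UMIs of *UPK3A*, against 15.6% in cluster 12. CF cluster 21, whose 226 cells had a median of 1043.5 UMIs, held *UPK3A* at 119 CPM (85.4 to 161) from 41 UMIs. *TSPAN8* was highest in CF cluster 4, at 216 CPM (209 to 224), overlapping cluster 18, and in cluster 4 613 of 626 cells were from day 2. Ordered by level, 34 to 37 of the 38 neighbouring pairs of WT clusters and 23 to 28 of the 28 of CF clusters had overlapping intervals, depending on the gene.

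By day, the levels within CF clusters 12 and 18 differed. In cluster 12, 329 cells of day 5 held *GKN1* at 194 CPM, *UPK3A* at 111 CPM and *APOH* at 15.1 CPM, and 50 cells of day 7 held them at 149, 147 and 27.6 CPM. In cluster 18 *UPK3A* stood at 103 CPM at day 5, 176 at day 7 and 253 CPM at day 9, from 89, 110 and 139 cells, while *GKN1* stood at 150.3, 106 and 130.5 CPM. Cluster 19, which held 82.0% of the CF ductal cells of day 9, held *UPK3A* at 90.6 CPM and *GKN1* at 103 CPM in its 233 cells of that day.

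By deposited class, the levels within a genotype differed between classes. In CF at day 9 *UPK3A* stood at 223 CPM in the named centroacinar progenitors, 101 in ductal and 32.7 CPM in centroacinar cells, and *GKN1* at 106, 114 and 22.8 CPM. In WT at day 9 *SELENBP1* stood at 106, 15.5 and 63.8 CPM in the same classes, and *TSPAN8* at 142, 18.7 and 114 CPM. Both genes were thus lowest in the ductal class in WT at day 9. At day 2 both were lower in the WT acinar class, at 9.40 and 48.4 CPM, than in the ductal class, at 17.4 and 58.2 CPM. The named centroacinar progenitors of CF held *UPK3A* at 18.1, 84.0, 139 and 223 CPM at day 2, 5, 7 and 9, and the WT cells of that name at 0.72, 0.91, 0.54 and 1.85 CPM. *SELENBP1* in the same cells stood at 15.6, 40.9, 60.8 and 65.5 CPM in CF and at 33.1, 75.05, 122 and 106 CPM in WT. These values are set side by side with no comparison, since the authors named the clusters separately in each genotype and different clusters hold the name.

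Next, the members were compared with each other over clusters of at least 50 cells, as Pearson's r of log2(CPM + 1). In the 29 CF clusters all 15 pairs were positive, from 0.47 to 0.93 with a median of 0.71. In the 39 WT clusters 13 of 15 were positive, from −0.16 to 0.86 with a median of 0.54. These r are descriptions over clusters that share libraries and depth, and clusters are not replicates.

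*UPK3A* was the gene that behaved unlike the rest in WT. Its r with *BCAS1* was 0.92 in CF and 0.02 in WT, and with *SELENBP1* it was 0.84 in CF and −0.16 in WT. Over the 12 SOX2-low WT clusters the same pairs had r of 0.86 and 0.71, and over the 27 SOX2-high clusters −0.53 and −0.27. With *KRT5*, the keratin of basal cells, *UPK3A* had an r of −0.73 in CF, −0.81 in SOX2-low WT and 0.55 in SOX2-high WT clusters. *BCAS1* had an r with *KRT5* of −0.78, −0.90 and −0.92 in the same 3 sets, negative in all of them. Day differs between the clusters as well, and SOX2-high WT clusters 4, 6 and 9 come almost wholly from day 2. In SOX2-high WT cells *UPK3A* stood at 6.47 CPM at day 2 and 0.78 CPM at day 5, and *BCAS1* at 5.04 and 34.0 CPM. Day and cluster cannot be told apart in these r.

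The pair of *GKN1* and *APOH* kept its relation in each set, with r of 0.79 in CF, 0.86 in SOX2-low WT and 0.81 in SOX2-high WT clusters. *GKN1* and *TSPAN8* also varied together, at 0.93, 0.83 and 0.80. *SELENBP1* and *TSPAN8* had r of 0.70 in CF and 0.90 in SOX2-high WT, but −0.01 over the 12 SOX2-low WT clusters.

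**Figure D4:**
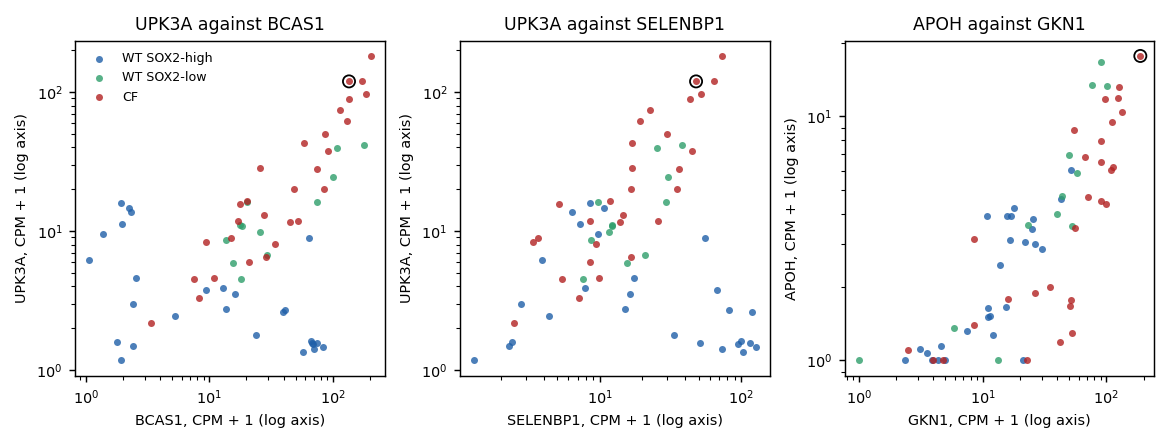
Levels of 3 pairs of members (CPM + 1, both axes logarithmic), 1 point per deposited cluster of at least 50 cells, SOX2-high WT in blue, SOX2-low WT in green, CF in red and CF cluster 12 circled. UPK3A goes with BCAS1 and SELENBP1 in CF and SOX2-low WT clusters (r of 0.92 and 0.86 with BCAS1). In SOX2-high WT clusters its r is −0.53 with BCAS1 and −0.27 with SELENBP1. APOH goes with GKN1 in all 3 sets. The clusters also differ in day, which cannot be told apart from cluster here.

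In single cells, the members were looked for after each cell had been thinned to 3000 UMIs, which dropped 80, 150, 73 and 136 cells of WT at day 2, 5, 7 and 9 and 39, 45, 411 and 224 of CF. A UMI of at least 2 members was found in 44.9% (39.9 to 49.97%) of 392 cells of CF cluster 12 and in 57.7% (52.2 to 63.0%) of 338 cells of CF cluster 18. In WT it was 21.7% (15.7 to 28.7%) of 166 cells of cluster 33, 17.7% of 254 cells of cluster 30, 16.2% of 587 cells of cluster 17 and 13.5% (10.5 to 16.96%) of 453 cells of cluster 22. At least 4 members were found in 9 of the 392 cells and in 3, 0, 0 and 1 cells of those WT clusters, so few cells showed most of the members at this depth. The 0 of 254 and 0 of 587 cells allow shares of up to 1.18% and 0.511%, taking 3 counts as the limit.

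CF cluster 11, with its mesenchymal markers and nearly all of its cells from day 7 and 9, had a *GKN1* UMI in 0.748% and a *UPK3A* UMI in 0 of 401 thinned cells, which allows a share of up to 0.748%. Its median depth was 24106 UMIs, and that of CF cluster 12, mostly from day 5, was 29276 UMIs. Cluster 11 still held *KRT5* at 814 CPM, against 647 and 370 CPM in the CF libraries of day 7 and 9. No cell type known to lack the members was thus at hand in any library. For the WT libraries and for CF at day 2 and 5 the lowest share in any cluster of at least 50 thinned cells is given, from cells that may express the genes. For *GKN1* it was 0 of 62 cells in CF at day 5 (cluster 16, median depth 18029 UMIs), which allows up to 4.84%, and 0 of 87, 126, 75 and 205 cells in WT at day 2, 5, 7 and 9, which allows up to 3.45%, 2.38%, 4% and 1.46%. In CF at day 2 the lowest share for *GKN1* was 9.29% of 721 cells (7.27 to 11.7%). For *UPK3A* it was 3.23% of 62 cells (0.393 to 11.2%) in CF at day 5, 0 of 221 cells in CF at day 2, which allows up to 1.36%, 0.147% of 682 cells in WT at day 2, and 0 on the other WT days, which allows up to 0.443%, 0.785% and 0.719%. In CF cluster 12 the shares were 41.6% for *GKN1*, 24.5% for *UPK3A*, 4.85% for *APOH*, 14.8% for *SELENBP1*, 28.6% for *BCAS1* and 30.4% for *TSPAN8*. In WT cluster 16 they were 4.96% for *GKN1*, 0 of 564 cells for *UPK3A*, which allows up to 0.532%, 29.96% for *SELENBP1* and 34.0% for *TSPAN8*. All of these counts come from droplets, in which a cell with no UMI may still hold the RNA.

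Within CF cluster 12 cells with and without *GKN1* were set side by side. *UPK3A* was seen in 27.6% of 163 cells with a *GKN1* UMI and in 22.3% of 229 cells without one, and *TSPAN8* in 30.7% and 30.1% of them. Over all thinned CF cells *UPK3A* was seen in 12.5% of 1566 cells with *GKN1* and in 6.85% of 9060 cells without it. Over WT cells it was 2.83% of 1203 and 1.43% of 19958 cells.

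Genes of stomach surface cells were then set beside the members, from a list of 17 that includes *GKN1*. Of these, 16 are in the count tables, and 12 of them passed 100 UMIs in CF cells and 13 in WT cells. *GKN2*, the partner gene of *GKN1*, had 11 UMIs in all WT cells and 2 in all CF cells, against 8854 and 18121 for *GKN1*. In CF cluster 12, 0 of the 12 were raised 4-fold. Only 0.0231% of all genes were raised there, so a count of 0 says little. *PSCA*, a surface antigen on the list, stood at 467 CPM in the cluster, against 267 CPM in the other CF cells. The gel-forming mucin *MUC5AC* was at least 4-fold lower, at 8.68 CPM, as were 3.22% of all genes tested there. The list median was −0.04 on the log2 scale, and that of all genes tested was −0.10.

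The 4 WT clusters differed from each other in these genes. In WT cluster 17, 5 of 13 were raised, namely the trefoil factors *TFF1* (973 CPM) and *TFF2* (2712 CPM), the mucin *MUC5AC* (368 CPM), *VSIG1* (2.92 CPM) and the surface antigen *PSCA* (376 CPM). In WT cluster 30, 4 of 13 were raised, with *TFF1* at 175 CPM, *TFF2* at 749.7 CPM and *PSCA* at 347 CPM. Of all genes tested 2.15% were raised in cluster 17 and 1.04% in cluster 30. In both clusters *MUC13* and *CTSE* were at least 4-fold lower, with *MUC13* at 7.66 CPM in cluster 17 and 3.46 CPM in cluster 30, as were 10.2% and 7.17% of all genes tested. In WT cluster 33 the raised gene was *GKN1* alone, where 1.01% of all genes were raised. There *MUC13* was at least 4-fold lower, at 4.92 CPM, as were 9.72% of all genes. In WT cluster 22 the raised gene was also *GKN1* alone, where 0.451% of all genes were raised. There *TFF1*, *TFF2*, *MUC5AC* and *MUC13* were at least 4-fold lower than in the other WT cells, as were 7.27% of all genes tested. *TFF1* stood at 1.45 CPM in WT cluster 22 and at 10.6 CPM in CF cluster 12. The days of these clusters differ, with 230 of 453 cells of WT cluster 22 from day 5 and 406 of 603 of cluster 17 from day 9. The whole WT libraries held *TFF1* at 1.33 CPM at day 5 and 137 CPM at day 9. *GKN1* was thus high in clusters with abundant trefoil factor RNA and in clusters with little of it.

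Of the umbrella cell list of 17 genes, *UPK3A* among them, 15 are in the count tables and 14 passed the 100 UMIs in each genotype. In CF cluster 12, 0 of 14 were raised 4-fold, where only 0.0231% of all genes were raised. The list median there was 0.48 on the log2 scale, against −0.10 for all genes tested. The other uroplakins stood at 242 CPM (*UPK1A*), 520.2 CPM (*UPK1B*), 6.65 CPM (*UPK2*) and 63.5 CPM (*UPK3B*) in that cluster, and at 46.7, 332, 5.84 and 50.1 CPM in WT cluster 33. In WT clusters 17 and 30, *UPK3A* and *PSCA* were the 2 raised genes of the list, against 2.15% and 1.04% of all genes. *PSCA* is on the stomach surface list as well and was counted there too. In WT cluster 22 *UPK1A* was at least 4-fold lower, at 14.9 CPM, as were 7.27% of all genes. *KRT8*, a keratin of simple and umbrella cells, was at 1668 CPM in CF cluster 12 and at 1573 to 2379 CPM in the 4 WT clusters.

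Between genotypes, *UPK1A* went with *UPK3A*. It stood at 19.3, 98.5, 96.2 and 131 CPM in WT and at 32.9, 202, 240.4 and 275 CPM in CF at day 2, 5, 7 and 9, and it was past 2-fold higher in CF from day 5 on. *GATA3*, a transcription factor of urothelium, was past 2-fold higher in CF on all 4 days, at 114 to 195 CPM against 32.9 to 63.6 CPM in WT. *UPK1B* was at 355 to 506 CPM in CF and at 304 to 602 CPM in WT, and was past 2-fold on no day. Of the 14 umbrella genes 3, 5, 5 and 4 were past 2-fold higher in CF at day 2, 5, 7 and 9, and *KRT18* was past 2-fold lower at day 5, with list medians of 0.56, 0.39, 0.28 and −0.25 on the log2 scale. Without *UPK3A* it was 3, 4, 4 and 3 of 13 genes. Of all genes tested 8.54%, 5.55%, 9.16% and 8.28% were past 2-fold higher, with medians of −0.01, −0.05, 0.12 and 0.07. Of the gastric surface genes 5 of 11, 5 of 13, 4 of 13 and 1 of 13 were past 2-fold higher and 3, 3, 2 and 5 past 2-fold lower, against 9.1%, 9.33%, 6.46% and 7.07% of all genes lower. Without *GKN1* the numbers higher were 4 of 10, 4 of 12, 4 of 12 and 0 of 12, with list medians of 0.71, 0.07, −0.07 and −0.66. *MUC13* and *CTSE* were among the lower ones on each day. *PSCA*, which is on both lists, was counted among the higher genes of each at day 2, 5 and 7.

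**Figure D5:**
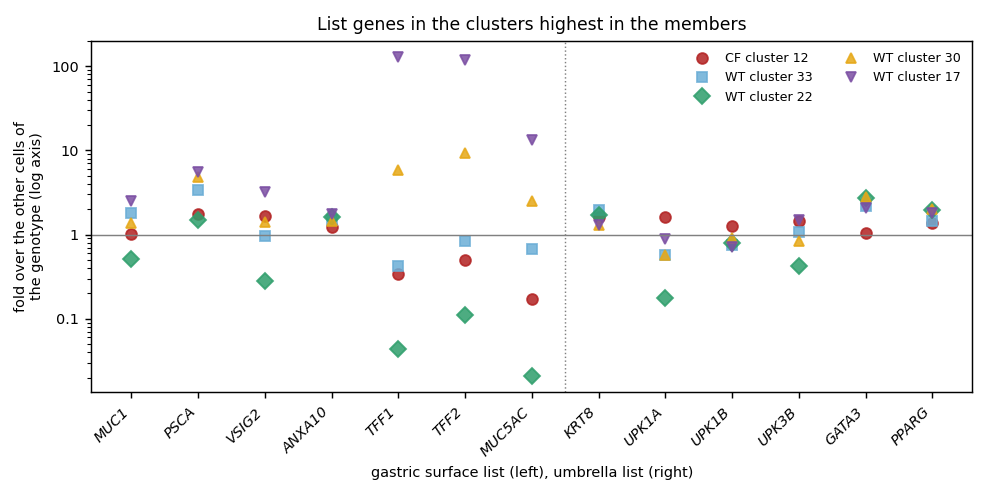
Fold over the other cells of the genotype (log axis, line at 1) of 7 genes of the gastric surface list and 6 of the umbrella list in CF cluster 12 and WT clusters 33, 22, 30 and 17. TFF1 and TFF2 spread the most, from 1.45 to 973 CPM for TFF1 between WT clusters 22 and 17, which lead on different days. The umbrella genes shown on the right spread less, with UPK1A in WT cluster 22 the lowest, at 14.9 CPM.

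For plasma proteins of the liver, 14 of 16 listed genes are in the count tables, and only *APOH*, *APOE*, *APOM* and *RBP4* passed 100 UMIs in each genotype. *ALB* had 4 UMIs in all WT and 2 in all CF cells, and *TTR* and *AHSG* had 0. *APOH* was raised in CF cluster 12 and in WT clusters 22, 30 and 33, and the other 3 genes were raised in none of these. Of the tetraspanins, 13 of 14 passed, and *TSPAN15* was the 1 gene raised in each of the 4 WT clusters, whereas none was raised in CF cluster 12. The level of *TSPAN15* was still higher in CF cluster 12, at 192 CPM, where the other CF cells held 114 CPM. WT clusters 33, 22, 30 and 17 held it at 154, 150, 133 and 151 CPM, and the other WT cells at 28.8 to 31.1 CPM. Of all genes 0.0231% were raised in CF cluster 12. In WT clusters 33, 22, 30 and 17 it was 1.01%, 0.451%, 1.04% and 2.15%.

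Proliferation genes were low in CF cluster 12 and in WT clusters 33, 22, 30 and 17. All 8 of the listed proliferation genes were at least 4-fold lower in CF cluster 12 and in WT clusters 17, 22 and 30, and 6 of 8 in WT cluster 33. Of all genes tested, 3.22% were that much lower in CF cluster 12. In WT clusters 17, 22, 30 and 33 it was 10.2%, 7.27%, 7.17% and 9.72%. In CF cluster 18, 7 of the 8 genes were at least 4-fold lower, against 6.31% of genes. In WT cluster 27, the fourth highest of the WT clusters for *GKN1*, all 8 were instead raised 4-fold, against 1.86% of genes. The cells compared with came from all days. *MKI67* and *TOP2A* stood at 28.5 and 48.4 CPM in WT at day 2 and at 0.33 and 0.96 CPM at day 9. In WT cluster 17, mostly of day 9, they stood at 0.40 and 0.50 CPM. The part of day in these folds was not tested. *KRT5* stood at 203 CPM in CF cluster 12, 371 CPM in WT cluster 22, 190 CPM in cluster 30, 142 CPM in cluster 33 and 13.8 CPM in cluster 17. Of 7 basal genes tested, 0 were raised in any of the 5 clusters, and 1 was at least 4-fold lower in CF cluster 12, 4 in WT cluster 17, 2 each in clusters 30 and 33 and 0 in cluster 22. The shares of all genes raised and lower in these clusters are those given above. Of 7 gastric gland genes, 5 are in the count tables and 0 passed 100 UMIs in either genotype. Of 11 secretory surface genes tested, 3 were raised in WT cluster 17 (*SCGB3A1*, *BPIFB1* and *SPDEF*) and 1 in cluster 30 (*BPIFB1*), against 2.15% and 1.04% of all genes. *SCGB1A1*, *MUC4*, *LYPD2* and *WFDC2* were at least 4-fold lower in both, against 10.2% and 7.17% of all genes. None of the 11 was raised in CF cluster 12 or in WT clusters 22 and 33, where 4, 9 and 5 of them were at least 4-fold lower. Of all genes 3.22%, 7.27% and 9.72% were that much lower there, and 0.0231%, 0.451% and 1.01% were raised. WT cluster 33 came mostly from day 2, while the cells compared with came from all days. Its *WFDC2* and *LYPD2* stood at 196 and 52.8 CPM, against 128 and 37.9 CPM in the WT library of day 2. Its *SCGB1A1* stood at 0.31 CPM, against 12.6 CPM in that library.

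All 7 ductal markers were above 1 CPM in CF cluster 12 and in WT clusters 22, 30 and 33, and 6 of 7 in WT cluster 17. In CF cluster 12, 5 of 5 centroacinar, 7 of 7 acinar and 10 of 11 centroacinar progenitor markers also reached 1 CPM. These counts therefore do not set the ductal name apart. The acinar enzyme gene *CELA1*, counted apart from the 7 acinar markers, stood at 0.0811 CPM in CF cluster 12. The ductal markers *KRT5* and *KRT15* stood at 0.297 and 0.549 times the other CF cells, and the leading genes of the cluster hold 0 ductal markers. Mesenchymal markers summed to 16.2 CPM in CF cluster 12 and to between 18.2 and 37.6 CPM in the 4 WT clusters, with *COL1A2*, *COL3A1*, *LUM*, *DCN* and *PDGFRB* at 0 in all 5. Immune markers summed to 14.4 CPM in CF cluster 12 and to between 9.75 and 53.7 CPM in the WT clusters, with *PTPRC* and *CD3E* at 0 in all 5. *TSPAN8* is itself 1 of the markers used for the centroacinar progenitor class, so its level there is not independent of that name.

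Finally, the genes whose level ran most like each member over the 39 WT clusters were sought among 8861 genes that reached 20 CPM in any of them. For *GKN1* they were LOC101682454, *SULT1B1*, a sulfotransferase, and *FABP5*, a fatty acid-binding protein, with r of 0.89, 0.88 and 0.88, and of 0.77, 0.62 and 0.77 over the 29 CF clusters. *APOH* ran most like *GKN1* (0.86), then like *ATP10B*, a lipid flippase, (0.85) and *SULT1B1* (0.82), with 0.79, 0.82 and 0.71 in CF.

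The genes most like *UPK3A* in WT did not run with it in CF. They were *VAMP5*, *RIPK1*, a kinase of cell death and inflammation, and *SNTB2*, with r of 0.83, 0.83 and 0.83 in WT and 0.06, 0.11 and −0.04 in CF. For *BCAS1* the genes were *SMIM22*, *AP1S3*, a subunit of a vesicle coat adaptor, and *SYTL2*, a regulator of granule docking, with r of 0.96 in WT for each and 0.83, 0.85 and 0.87 in CF. For *SELENBP1* they were *SAT1*, an enzyme of polyamine breakdown, *HCLS1* and the myosin gene *MYO5C*, with r of 0.95, 0.95 and 0.94 in WT and 0.79, 0.73 and 0.82 in CF. For *TSPAN8* they were *TRIB1*, *RND3* and the tight junction claudin *CLDN7*, with r of 0.94, 0.92 and 0.91 in WT and 0.67, 0.34 and 0.86 in CF.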

How the data were processed

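Single-cell RNA libraries of WT and CF PDE cultures, 1 for each genotype and day, were analysed. The deposited matrices hold UMI counts, which the authors made with Cell Ranger 5.0.1 against ferret genome ASM1176430v1.1. The authors kept cells with R 4.1.2 and Seurat by their numbers of genes and by the percent of mitochondrial UMIs (deposited per cell), removed doublets with DoubletFinder, and clustered and named WT and CF cells separately. The deposited normalized values and lineage scores were not used. Genotype and day come from the sample titles. Libraries share at most 14 barcodes.

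UMIs of retained cells were summed by library, class and cluster and scaled to CPM. Intervals were exact (Poisson, Clopper-Pearson, conditional binomial). Log2 differences had 1 CPM added. A gene was tested between genotypes with at least 30 UMIs over both libraries and in clusters with at least 100 UMIs over the genotype. Genes named are the members, the 3 most like each, and list genes raised in CF cluster 12 and in the 4 WT clusters that tied for most members raised; other list genes and leading genes were named after their values were seen. The members and lists were chosen with earlier results of these data known. Calculations used Python 3.11.15 with scipy 1.17.1, and edgeR 4.0.16 and DESeq2 1.42.0 for TMM and size factors only. Ratios and fold calls were tested on simulated data. Gene sequences were not analysed here. The depth of a library, from 34735952 to 114585136 retained UMIs, sets the width of each interval.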

Additional observations from a re-analysis of the deposited data

Results flagged for a closer look

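With 1 library for each genotype and day, the following differences in direction were not tested. *APOH* and *TSPAN8* changed from day 2 to day 9 in opposite directions in the genotypes. The ratio of day 9 to day 2 for *APOH* was 1.51 in WT (1.34 to 2.03 CPM) and 0.599 in CF (4.48 to 2.68 CPM), and for *TSPAN8* it was 1.25 in WT and 0.670 in CF. *SELENBP1* was lower in CF than in WT at day 2, 7 and 9, with ratios of 0.651, 0.553 and 0.393, and higher at day 5, with 1.15. *TSPAN8* was higher in CF at day 2, 5 and 7, with ratios of 1.70, 1.38 and 1.21, and lower at day 9, with 0.909. Each of these intervals for counting error excluded 1.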

How the results depend on the processing

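All 24 differences between genotypes (6 members on 4 days) kept their direction with TMM factors, DESeq2 size factors, a pseudocount of 5 CPM, no low-count filter, all deposited barcodes, and cells of at least 3000 UMIs. With the pseudocount of 5 CPM 2 members were past 2-fold higher at day 2 in place of 3, with *APOH* at 0.58 in place of 1.22 on the log2 scale. At day 7 the number past 2-fold higher in CF was 1 in place of 2 with TMM, DESeq2 factors or a pseudocount of 5 CPM, and 1 was 2-fold lower in place of 0 with TMM and DESeq2. In the deposited ductal class it was 6 higher at day 5, 7 and 9, with 0 lower at day 9, and 21 of 24 kept their direction. The share of all genes past 2-fold was not computed in this class or in the sets of WT cells below. Nothing is therefore read from those counts. *SELENBP1* turned at day 7 (1.57) and day 9 (1.57), and *TSPAN8* at day 9 (2.67). That class is held by different clusters in each genotype (CF cluster 19 makes up 82.0% of it in CF at day 9, WT cluster 8 37.2% in WT), and the leading genes of CF cluster 19 hold 1 centroacinar progenitor marker and 0 ductal ones, so this is no comparison of like cells. The next settings, which leave out cells of WT or CF, were chosen after seeing the data. Against SOX2-low WT cells 0 members were 2-fold higher at day 2 and 0 lower at day 9, and 19 of 24 kept their direction: *APOH* turned at day 2 (−0.19) and day 9 (−0.04), *SELENBP1* at day 2 (0.35) and day 7 (0.43), and *TSPAN8* at day 9 (1.51). Against SOX2-high WT cells 4 were higher and 1 lower at day 7, and 22 of 24 kept their direction, all but *SELENBP1* at day 5 (−0.25) and *TSPAN8* at day 7 (−0.04). Without CF cluster 12 all 24 kept their direction, and without CF cluster 11 it was 23, with *TSPAN8* at day 9 at 0.04.

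The number of WT clusters with at least 4 members raised was 0, and 4 with a fold of 2, 3 against the median of the other WT clusters (22, 30 and 33), and 4 with only 2 members asked for (added after seeing the data). It was 0 to 1 when each WT library was left out in turn: without day 9 WT cluster 30 had 4 raised. The other settings gave 0. Equal weight for each library gave *GKN1*, *UPK3A* and *APOH* 172, 129 and 21.3 CPM in CF cluster 12, *APOH* 11.3 CPM in WT cluster 22 (53.0% of CF cluster 12, and 94.2% over pooled cells), *SELENBP1* 141 CPM in WT cluster 16 and *TSPAN8* 146 CPM in WT cluster 7, and the highest WT cluster became cluster 22 for *GKN1*, 30 for *APOH* and 18 for *TSPAN8*. Cells with at least 2 members were 12.4% in CF cluster 12 and 6.63%, 4.98%, 2.69% and 2.87% in WT clusters 33, 17, 30 and 22 at 1000 UMIs, and 97.7%, 89.8%, 79.4%, 91.2% and 85.2% unthinned. A paired fit, of genotype with day as a block over the 8 libraries, was left out, since the members were chosen by their levels in CF cells. The promoter search was not run, since no promoter sequence was used here.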
